A study of Mus musculus with 21 samples.

Results

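Genes of glycolysis and of the response to low oxygen were followed in mouse mammary epithelial cells exposed to the cytokine TGF-b1 (transforming growth factor beta 1), under which epithelial cells can take on mesenchymal features, and in such cells after knockdown of the forkhead transcription factor FoxQ1. The genes were a list of 36, found by their platform gene symbol, with the probe set of highest mean standing for each gene. Of the 36, 32 were measured among 18193 genes in the NMuMG table and 31 among 12393 genes in the NM18 table. Gpi1, Gapdh, Eno1 and Bnip3l were not analysed here in either table, because no probe set carried their symbol alone, and Ankrd37 was not analysed in NM18 cells. Gapdh was read only on the array's control spots. No filter on low values was applied, so every measured member entered every fit.

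Expression was measured on Affymetrix mouse arrays, with 3 arrays per group. Cells of the NMuMG line, from normal mouse mammary epithelium, were grown for 2 h with 200 µM 4-thiouridine (4sU), a uridine analogue that marks RNA made while it is present, either alone or together with 5 ng/ml TGF-b1. Each condition gave arrays of total RNA and arrays of the RNA pulled out by its 4sU label, here called newly made RNA, so all 4 NMuMG groups had received 4sU. All 3 NM18 groups had been transfected with 25 nM siRNA for 48 h: a scrambled control siRNA without TGF-b1, the control siRNA with 5 ng/ml TGF-b1 for the last 40 h, and FoxQ1 siRNA with the same TGF-b1. There was no FoxQ1 siRNA group without TGF-b1 and no group kept at low oxygen. Control siRNA array 1 was placed by its title and treatment label, while a free-text note on it also mentions TGF-b1.

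Glycolysis turns glucose into pyruvate: hexokinases trap glucose, phosphofructokinase commits it, and lactate dehydrogenase and the pyruvate dehydrogenase kinases decide whether pyruvate leaves as lactate or enters mitochondria. When oxygen is present, the prolyl hydroxylases encoded by the Egln genes mark the transcription factor subunit HIF-1 alpha for destruction through the VHL protein. When oxygen is scarce HIF escapes and switches on most glycolytic genes together with Vegfa, Bnip3, Ankrd37, P4ha1 and Egln3 itself. TGF-b1 and hypoxia meet at several of these genes in epithelial cells.

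Foxq1 checked the siRNA: its mean was 8.26 in control siRNA cells, 9.15 with TGF-b1 and 7.88 with FoxQ1 siRNA and TGF-b1 (log2, n = 3 each), a fall of 1.27 ± 0.16 (SE) between the last 2 groups (limma adjusted p = 2.91e-04). The TGF-b1 feedback genes Smad7 and Skil were higher with TGF-b1 in newly made, total and NM18 RNA (adjusted p at most 0.00259). Of 10 epithelial markers 6 or 7 lay above the median gene in the NMuMG groups and 4 or 5 in the NM18 groups, against 0 of 4 endothelial markers. Of 7 macrophage and leukocyte markers 1 lay above it in the NMuMG groups, Cd14 (mean 10.96 over the arrays), and 1 or 2 in the NM18 groups. Over single NM18 arrays the mean of these 7 was 6.91 to 6.96 with control siRNA, 6.80 to 6.84 with TGF-b1 and at least 6.96 with FoxQ1 siRNA as well, and the mean of the epithelial markers 9.10 to 9.15, 8.90 to 8.95 and 9.14 to 9.26. The mean of 7 fibroblast markers on single arrays was 5.51 to 5.93 in control and 5.78 to 6.08 in TGF-b1 newly made RNA, and 5.85 to 5.99, 6.07 to 6.14 and 5.99 to 6.08 in the 3 NM18 groups in the order above. Their part in the results was not tested. In bulk samples, fewer cells expressing a gene and less RNA per cell cannot be told apart.

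Within 2 h of TGF-b1, newly made RNA of 5 of the 32 measured members rose and that of 1 fell, by limma at an adjusted p under 0.05. These are 18.8% of the members, and 6.13% of all genes were called (3.35% higher and 2.79% lower). The rises were in Hk2, Pfkfb3, Egln1, Vegfa and Ankrd37 and the fall in Egln3. The median member did not move (log2 change 0.00, against -0.01 for all genes). In total RNA 3 rose (Hk2, Vegfa and Ankrd37) and 1 fell (Egln3), 12.5% of the members against 2.48% of all genes (1.46% higher and 1.02% lower). In a fit of genes above the median level only, 6 of 27 members and 10.6% of genes were called in newly made RNA. The same fit for total RNA called 3 of 27 members and 4.23% of genes.

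Among the glycolytic enzymes, Hk2, the inducible hexokinase, moved the most. In newly made RNA its 3 arrays read 10.23, 9.92 and 10.41 (log2) in control cells and 11.36, 11.49 and 11.23 with TGF-b1, and in total RNA 9.76, 9.44 and 9.96 against 10.92, 10.66 and 10.76. Every TGF-b1 array lay above every control array of its kind of RNA. The rise was 1.17 ± 0.15 (SE) on the log2 scale in newly made RNA, 2.25-fold (adjusted p = 1.17e-04), and 1.06 ± 0.15 in total RNA, 2.09-fold (adjusted p = 5.49e-04). Hk1, the constitutive hexokinase, had changes of 0.08 (95% interval -0.36 to 0.53) and -0.12 (-0.56 to 0.33).

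Pfkfb3 makes the allosteric activator of phosphofructokinase. Its newly made RNA read 7.23, 6.62 and 7.06 in control and 8.16, 7.56 and 7.45 in TGF-b1 arrays, a rise of 0.75 ± 0.20 (1.69-fold, adjusted p = 0.0298). The groups did not overlap but lay close, and the call was lost without TGF-b1 array 1 (adjusted p = 0.126) or control array 2 (adjusted p = 0.17) and in a fit of the 6 newly made arrays alone (adjusted p = 0.111). In total RNA control arrays read 6.35, 6.39 and 6.29 and TGF-b1 arrays 7.16, 7.04 and 6.59, which gave 0.58 ± 0.20 (adjusted p = 0.206, and 0.033 with the replicate number as a block). A second Pfkfb3 probe set had 0.07 and 0.03 and was not called.

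No other glycolytic enzyme was called at 2 h in the main fit, which has no replicate block. Pgk1, phosphoglycerate kinase, read 12.41, 12.58 and 12.22 in control and 11.82, 12.11 and 11.99 in TGF-b1 newly made RNA, so the groups did not overlap. Its change of -0.43 ± 0.13 had an adjusted p of 0.058, and 0.0378 with the replicate block. The remaining 10 glycolysis members had changes between -0.31 (Eno2) and 0.12 (Aldoc) in newly made RNA. Gapdh control spots, which no fit held, averaged 12.61 without and 12.4 with TGF-b1 near the 3′ end in newly made RNA, and 13.83 and 13.74 in total RNA. Near the 5′ end they averaged 9.51 and 9.46, and 12.02 and 11.85. These differences were not tested. The 6 genes of pyruvate fate and transport (Ldha, Ldhb, Pdk1, Pdk3, Slc2a1 and Slc16a3) had changes between -0.15 and 0.21 in newly made RNA and between -0.07 and 0.23 in total RNA, with none called.

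The oxygen-sensing genes, called oxygen sensors below, take in Hif1a and Vhl beside the Egln hydroxylases, and they split. Egln3, which encodes the prolyl hydroxylase PHD3, read 9.41, 9.53 and 9.47 in control and 7.51, 7.62 and 7.29 in TGF-b1 newly made RNA. It fell by 2.00 ± 0.12 on the log2 scale, to a level 3.99-fold lower (adjusted p = 5.79e-08). In total RNA it read 9.89, 9.67 and 9.98 against 9.17, 9.14 and 9.02 and fell by 0.74 ± 0.12, 1.67-fold lower (adjusted p = 0.00173). The groups were far apart in newly made RNA and closer, but without overlap, in total RNA.

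The difference between these falls, tested as an interaction, was -1.26 ± 0.17 (adjusted p = 0.00757). Egln3 was the only one of the 32 members called in that test, in which 0.0660% of all genes were called (0.0110% higher and 0.0550% lower). A second Egln3 probe set fell by 1.18 in newly made and by 0.87 in total RNA, and its difference of -0.31 ± 0.23 was not called. With the mean of both probe sets the difference was -0.78 (adjusted p = 0.0988). The fall itself was seen with both probe sets. Its estimate was larger in newly made RNA with both, and that difference was called with 1 of them.

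Egln1, the main oxygen-sensing hydroxylase, went the other way. Its newly made RNA read 9.79, 10.13 and 9.92 in control and 10.33, 10.34 and 10.40 in TGF-b1 arrays, a rise of 0.41 ± 0.12 (adjusted p = 0.0474). This call sat at the threshold: it was lost in 9 of 14 alternatives, with adjusted p up to 0.162, and a second probe set had 0.19 and was not called. In total RNA the arrays read 10.29, 10.06 and 10.18 against 10.54, 10.49 and 10.37, and 0.29 ± 0.12 was not called (adjusted p = 0.351). Hif1a, the oxygen-regulated HIF subunit, was not called at 2 h: its newly made RNA read 11.55, 11.50 and 11.69 in control and 11.61, 11.55 and 11.71 in TGF-b1 arrays, a change of 0.04 (95% interval -0.23 to 0.31), and its total RNA 11.56, 11.30 and 11.57 against 11.64, 11.69 and 11.31, a change of 0.07. Egln2, another hydroxylase, and Vhl, which recognises hydroxylated HIF, had -0.03 (-0.27 to 0.20) and -0.06 (-0.29 to 0.16) in newly made RNA. Newly made Egln2 read 9.70, 9.52 and 9.67 in control and 9.71, 9.63 and 9.45 in TGF-b1 arrays, and newly made Vhl 9.22, 9.32 and 9.29 against 9.27, 9.14 and 9.22. These groups overlapped. In total RNA Egln2 read 10.35, 10.32 and 10.40 against 10.17, 10.17 and 10.30 and Vhl 7.88, 7.89 and 7.94 against 7.73, 7.77 and 7.52, lower without overlap and not called (-0.14 and -0.23).

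Vegfa, the angiogenic growth factor, had the largest called change among the other HIF targets. Newly made RNA read 9.20, 8.67 and 8.72 in control and 9.88, 10.06 and 9.97 in TGF-b1 arrays, and total RNA 8.18, 8.19 and 7.94 against 9.21, 9.22 and 9.06. TGF-b1 arrays were all higher in both kinds of RNA, by 1.11 ± 0.14 (2.16-fold, adjusted p = 8.95e-05) and 1.07 ± 0.14 (2.09-fold, adjusted p = 2.26e-04). A second probe set rose by 0.85 in newly made RNA (called) and had 0.71 in total RNA (not called).

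Ankrd37, a small ankyrin repeat gene that HIF activates, read 6.14, 5.97 and 5.90 in control and 6.96, 6.55 and 6.81 in TGF-b1 newly made RNA, a rise of 0.77 ± 0.13 (adjusted p = 0.001). Its total RNA read 5.90, 5.77 and 5.99 against 6.57, 6.53 and 6.37 and rose by 0.60 ± 0.13 (adjusted p = 0.0139), a call lost without either of 2 arrays in each group (adjusted p up to 0.0831). Both kinds of RNA showed separated groups.

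Ddit4, the stress-induced inhibitor of mTORC1 signalling, had 1 array far from the rest. Newly made RNA read 10.82, 10.80 and 8.78 in control and 11.82, 10.84 and 11.16 in TGF-b1 arrays, while total RNA read 10.21, 10.11 and 10.28 against 11.41, 11.44 and 11.27. Control newly made array 3 lay far below the other control arrays, and the groups did not overlap in either kind of RNA. The main fit takes 1 spread per gene from all groups, control newly made array 3 included. The changes of 1.14 and 1.18, both ± 0.39, were not called (adjusted p = 0.11 and 0.187). With the replicate block both were called (adjusted p = 0.0165 and 0.0253), and total RNA was called in a fit of the 6 total RNA arrays alone (adjusted p = 3.40e-05). Bnip3, Ndrg1, P4ha1, P4ha2 and Adm had changes between -0.22 and 0.16 in both kinds of RNA, with none called.

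**Figure D1:**
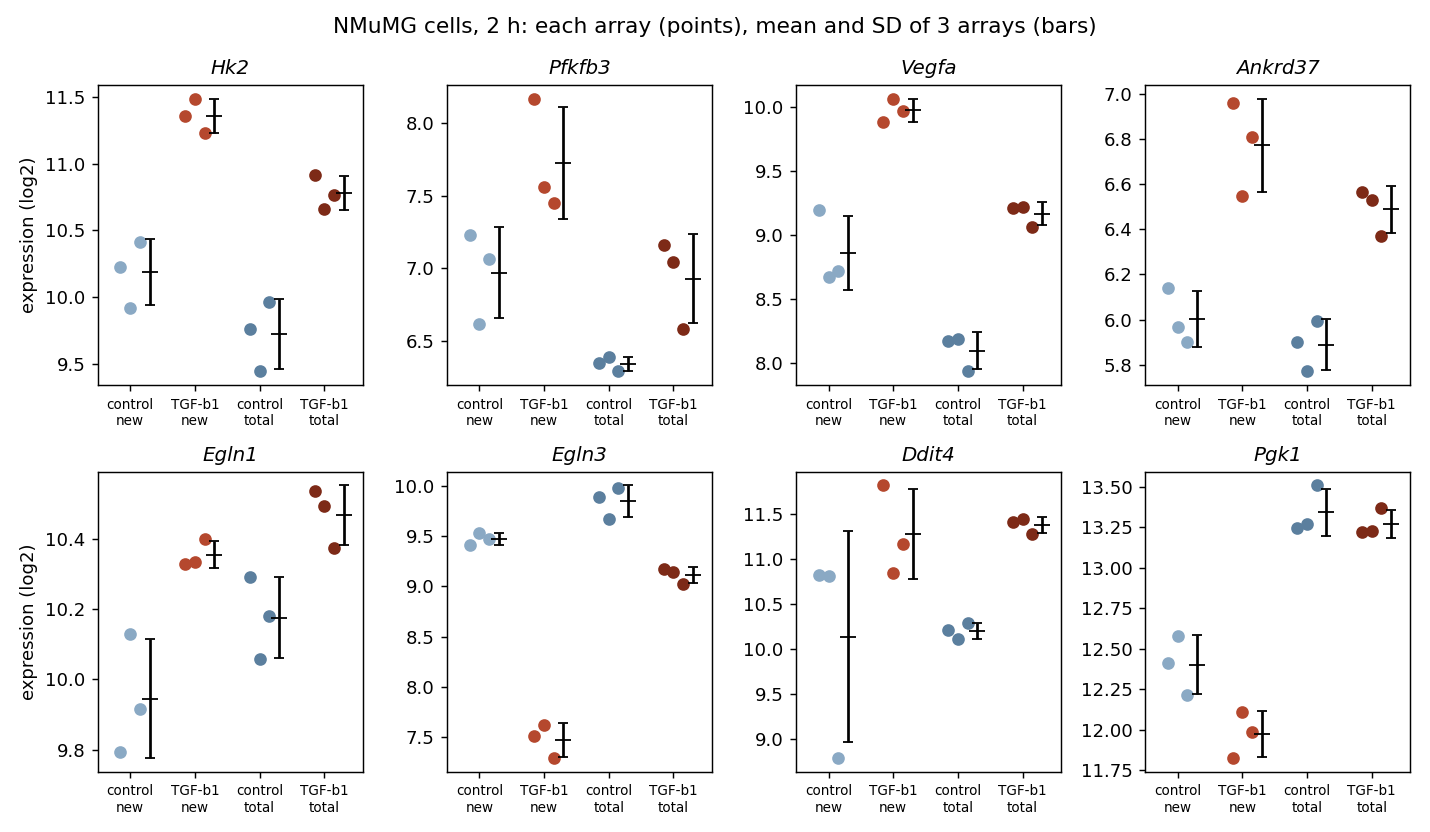
Expression (log2) of 8 genes on each NMuMG array after 2 h, with points for arrays and bars for the mean and SD of 3 arrays; the vertical scale differs between panels. Hk2, Vegfa and Ankrd37 are higher on all TGF-b1 arrays of both kinds of RNA, Egln3 is lower, most in newly made RNA, and control newly made array 3 stands low for Ddit4.

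From a wider list of glycolysis, glucose transport and pyruvate genes outside the 36, 3 of 36 measured rose and 3 fell in newly made RNA. The called genes of smallest p were Slc2a2, a glucose transporter (-1.63 ± 0.14), Pfkfb4, a relative of Pfkfb3 (1.23 ± 0.19), Tigar, a bisphosphatase that slows glycolysis (-0.53 ± 0.11), and Bpgm (0.64 ± 0.13). In total RNA 0 rose and 3 fell: Tigar (-0.68), Slc2a2 (-0.64) and the pyruvate dehydrogenase phosphatase Pdp2 (-0.57). From a wider list of hypoxia genes, 3 of 43 rose and 1 fell in newly made RNA: the repressor gene Bhlhe40 (1.51 ± 0.17), the VEGF receptor gene Flt1 (1.37 ± 0.23) and the lysyl hydroxylase gene Plod2 (1.03 ± 0.19) rose and the hormone gene Stc1 (-0.90 ± 0.14) fell. Only Bhlhe40 was called in total RNA (1.68 ± 0.17). The shares called, 16.7% and 9.3% in newly made RNA, stand beside 6.13% of all genes. In total RNA the shares of 8.33% and 2.33% stand beside 2.48%.

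The promoters of the genes that rose and of those that fell were set side by side, since both kinds are textbook HIF targets. HIF binds a core written ACGTG or GCGTG, and both were searched on both strands of the 300-base windows around annotated starts (RefSeq, GRCm38.p6). The longer CACGTG, which holds ACGTG on both strands, was searched too, as was the SMAD-type motif CAGACA. Stretches around the ACGTG nearest to an annotated start follow, each 5′ to 3′ on the strand that reads ACGTG, with the core in capitals.
Hk2 (chr6:82774490-82774518, + strand): ccccggacagtgACGTGgatgtgctcatt
Pfkfb3 (chr2:11502126-11502154, - strand): acccttctctccACGTGaaagggggctgg
Vegfa (chr17:46025358-46025386, + strand): tgttgctctctgACGTGggcacgcactcc
Egln1 (chr8:124949306-124949334, - strand): gggccgtggtgtACGTGcagcgcgcgcgg
Ankrd37 (chr8:45999840-45999868, - strand): cagtgtttgggtACGTGaggccgcagcgg
Egln3 (chr12:54204087-54204115, - strand): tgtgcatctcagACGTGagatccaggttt
Ldha (chr7:46845758-46845786, - strand): ggagcccagcggACGTGcgggaacccacg
Pgk1 (chrX:106186957-106186985, - strand): gagactagtgagACGTGctacttccattt

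The first 5 belong to genes called higher at 2 h, Egln3 to the gene called lower, and Ldha and Pgk1 to enzymes called lower at 40 h in NM18 cells. These last 2 are examples. Among the other members that fell there, Pdk1, Pfkl and Tpi1 had no ACGTG in any window. Aldoa, Aldoc, Pkm2, Pfkm, Slc2a1, Pdk3 and Hif1a had it in a window. The core was thus present in windows of genes that moved in opposite directions. ACGTG was found in 55.1% of the 49 windows of 34 members with a promoter in the table and in 19.6% of all 32851 windows, and GCGTG in 59.2% against 32.4%. CACGTG was in 12.2% against 7.15% and CAGACA in 16.3% against 21.0%. Member windows were also richer in G and C (median 62.7% against 52.7%), and the part of base composition in these shares was not tested. A match is a description of the letters and not a site of binding.

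Newly made and total RNA were also compared with each other. A transcript that is replaced quickly takes up a larger share of newly made than of total RNA, and a long-lived one a smaller share. In untreated cells 18 of the 32 members were lower and 4 higher in newly made than in total RNA, 68.8% of the members, where 44.0% of all genes were called (26.8% lower and 17.2% higher). Calls were more frequent at higher levels. In a fit of genes above the median level only, 21 of 27 members and 72.4% of genes were called. The median difference was -0.50, against -0.08 for all genes. By role, 9 of 13 glycolysis members, 5 of 6 pyruvate and transport members, 2 of 5 oxygen sensors and 2 of 8 other HIF targets were lower, and the difference between roles was not tested.

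Pfkl, the liver-type phosphofructokinase, read 8.59, 8.60 and 8.44 in newly made and 10.91, 10.76 and 10.64 in total RNA, a difference of -2.23 ± 0.12 (4.69-fold lower, adjusted p = 1.60e-09). Aldoa, the main aldolase, read 10.50, 10.39 and 10.28 against 12.62, 12.39 and 12.73, a difference of -2.19 ± 0.12 (4.56-fold lower). Ldha, which makes lactate, read 11.36, 11.22 and 11.37 against 12.61, 12.53 and 12.86, a difference of -1.35 ± 0.11 (2.55-fold lower). These groups were separated by over 1 log2 unit. Tpi1 (-1.65), Pkm2 (-1.52), Pfkm (-1.45), Pdk3 (-1.39), Pgam1 (-1.27) and Hk1 (-1.17) were each at least 2.26-fold lower, and Pgk1, Aldoc, Pdk1, Ldhb and Slc2a1 lay between -0.94 and -0.49. The groups of Slc2a1 overlapped, and its call was lost after quantile normalization (adjusted p = 0.0961), with only the groups compared (0.0648), with a trend in the variance (0.0513) and without any 1 of 5 arrays (0.0646 to 0.226). The Pdk1 call was lost without control newly made array 3 or control total array 1 (adjusted p = 0.11 and 0.115).

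The 4 members higher in newly made RNA were Hk2, Pfkfb3, Vegfa and Vhl. Hk2 was higher in newly made RNA by 0.47 ± 0.15 (adjusted p = 0.0193), with overlapping groups, and Pfkfb3 by 0.62 ± 0.20 (adjusted p = 0.0153), Vegfa by 0.76 ± 0.14 (adjusted p = 2.34e-04) and Vhl by 1.37 ± 0.11 (adjusted p = 2.94e-08). Vhl read 9.22, 9.32 and 9.29 in newly made and 7.88, 7.89 and 7.94 in total RNA, although its second probe set had -0.18 and was not called. The hexokinases thus lay on opposite sides, Hk1 at -1.17 and Hk2 at 0.47. Second probe sets of Pfkfb3 (-0.26) and Vegfa (0.50) were not called in untreated cells. Without control newly made array 3 or control total array 2 the Hk2 call was lost (adjusted p = 0.0949 and 0.114), and without control newly made array 1 that of Pfkfb3 (adjusted p = 0.059), which was also lost after quantile normalization (adjusted p = 0.212). Hif1a had 0.10 (95% interval -0.17 to 0.37), and was called after quantile normalization (0.35, adjusted p = 0.0217); median centring, which lowers every gene alike, put it at -0.14. Ankrd37 had 0.11, -0.14 and -0.13 and Ddit4 -0.07, 0.01 and -0.31 under the same settings, none of them called.

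Under TGF-b1 the comparison gave 4 members higher and 19 lower (71.9%, against 45.0% of all genes). Above the median level 22 of 27 members and 73.1% of genes were called. All 4 higher and all 18 lower members of untreated cells were called the same way, and Ndrg1 was added (-0.41). The Ndrg1 call was lost without any 1 of 4 arrays (adjusted p = 0.0925 to 0.142). That of Slc2a1 was lost after quantile normalization (adjusted p = 0.0597) and without any 1 of 3 arrays (0.0919 to 0.191), and that of Hk2 after median centring (0.35, adjusted p = 0.0622). The untreated call of Egln3 was lost with the mean of its probe sets (-0.15, adjusted p = 0.29) and without control total array 1 or 3 (adjusted p = 0.0571 and 0.0679). It went from -0.38 ± 0.12 without to -1.64 ± 0.12 with TGF-b1, and Hk2, Pfkfb3, Vegfa and Vhl had 0.58, 0.79, 0.80 and 1.54.

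These differences moved with the scaling and between probe sets. Median centring moved the median of all genes from -0.08 to -0.33 in untreated cells and the share of calls that were higher from 39.1% to 19.4%. It ended the calls of Hk2 (0.22, adjusted p = 0.223) and Pfkfb3 (0.38, adjusted p = 0.0979), and left 2 members higher and 23 lower. The lower calls added were the oxygen sensor Egln1 (-0.48), the HIF targets Ndrg1 (-0.55), P4ha1 (-0.56) and Adm (-0.40), and Pfkp (-0.65). With the mean of all probe sets Egln1 (-0.65), Ndrg1 (-0.42) and P4ha1 (-0.82) were also called lower. Of 2 other probe sets each, 1 of Pfkl and 1 of Pfkp were higher in newly made RNA (0.67 and 1.40), against -2.23 and, not called, -0.40 for the ones used. Gapdh control spots near the 3′ end exceeded those near the 5′ end by 2.67 to 3.72 on newly made and by 1.63 to 1.94 on total RNA arrays of untreated cells, and the part of this in the result was not tested. The 3′ spots averaged 12.61 ± 0.02 in newly made and 13.83 ± 0.26 in total RNA (SD, n = 3), those in the middle 11.38 ± 0.27 and 13.37 ± 0.28, and the 5′ spots 9.51 ± 0.54 and 12.02 ± 0.41.

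The wider lists held genes with larger differences. In untreated cells 63.9% of the measured glycolysis list and 62.8% of the hypoxia list were called, beside 44.0% of all genes and 72.4% of genes above the median level. With TGF-b1 the shares of the lists were 66.7% and 62.8%, beside 45.0% and 73.1%. In untreated cells 5 of 36 glycolysis genes were higher in newly made RNA and 18 lower, led by Bsg (-2.74 ± 0.13), the basigin gene whose product carries lactate transporters to the membrane, Gpd1 (-1.79), Pdp2 (1.76) and the enolase gene Eno3 (-2.18). Of 43 hypoxia genes 16 were higher and 11 lower, led by Rsbn1 (2.41 ± 0.17), the mitochondrial protein gene Fam162a (3.99-fold lower), the Notch-pathway factor gene Rbpj (1.38) and Wsb1 (2.00). With TGF-b1 the counts were 6 and 18, led by Bsg (-2.65), Gpd1 (-1.60), the phosphoglucomutase gene Pgm1 (-1.49) and Pdp2 (1.82), and 16 and 11, led by Rsbn1 (2.38), Fam162a (-2.04), Pgm1 (-1.49), which both lists hold, and Rbpj (1.38).

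**Figure D2:**
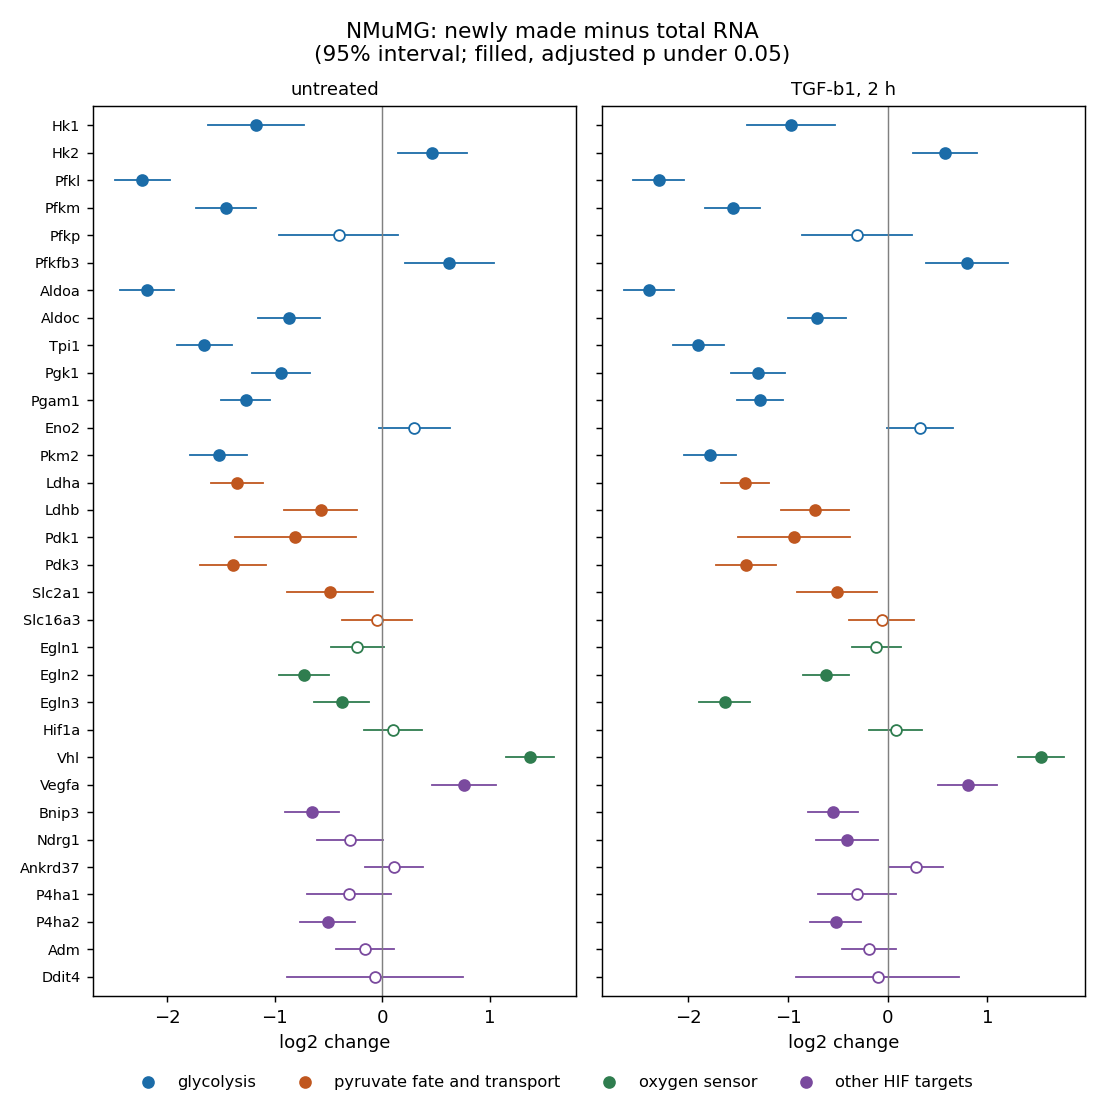
Difference between newly made and total RNA (log2) of each measured member in NMuMG cells, untreated on the left and with TGF-b1 on the right, with 95% intervals, filled points at an adjusted p under 0.05 and colours for the role. Most glycolysis and pyruvate genes lie left of 0, while Hk2, Pfkfb3, Vhl and Vegfa lie to the right.

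In NM18 cells the genes were read 40 h after TGF-b1. There 6 of 31 measured members rose and 13 fell, 61.3% of the members, where 30.7% of all genes were called (13.2% higher and 17.5% lower). In a fit of genes above the median level only, 15 of 22 members and 50.1% of genes were called. Hk2, Hk1 and Pfkfb3 rose while 7 of the 13 glycolysis members and 4 of the 6 pyruvate and transport members fell. The median of the 31 was -0.05, against 0.00 for all genes, and that of the pyruvate and transport members -0.46.

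Hk2 read 9.61, 9.83 and 9.66 without and 10.90, 10.76 and 10.98 with TGF-b1, a rise of 1.18 ± 0.14 (2.27-fold, adjusted p = 7.58e-05). Pfkfb3 read 6.47, 6.95 and 6.70 against 7.59, 8.15 and 7.74 and rose by 1.12 ± 0.19 (2.18-fold, adjusted p = 9.72e-04), while its second probe set had 0.20 and was not called. Hk1 read 9.94, 10.03 and 10.18 against 10.24, 10.33 and 10.44, a rise of 0.28 ± 0.08 (adjusted p = 0.0146). All 3 genes had separated groups, with the narrowest gap in Hk1, whose call was lost without control array 1 or TGF-b1 array 3 (adjusted p = 0.0624 and 0.0657).

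The 7 glycolysis members that fell were Aldoc, Pfkl, Pgk1, Tpi1, Pkm2, Pfkm and Aldoa. Aldoc, the brain-type aldolase, read 9.06, 9.07 and 9.93 without and 7.95, 8.11 and 8.18 with TGF-b1 and fell by 1.27 ± 0.19 (2.42-fold lower, adjusted p = 3.57e-04); its second probe set had -0.12 and was not called. Pfkl read 8.65, 8.88 and 9.20 against 8.15, 8.10 and 8.20 and fell by 0.76 ± 0.12 (1.69-fold lower, adjusted p = 5.32e-04). Pgk1 read 13.10, 13.06 and 13.17 against 12.56, 12.65 and 12.59 and fell by 0.51 ± 0.08 (1.42-fold lower, adjusted p = 4.06e-04). Control arrays were all above TGF-b1 arrays in these 3 genes.

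Tpi1, triosephosphate isomerase, read 12.86, 12.76 and 13.05 against 12.41, 12.39 and 12.52, a fall of 0.45 ± 0.08. Pkm2, the pyruvate kinase gene, read 12.66, 12.49 and 12.75 against 12.24, 12.23 and 12.17, a fall of 0.42 ± 0.09. Pfkm, the muscle-type phosphofructokinase, read 9.87, 9.95 and 9.97 against 9.56, 9.54 and 9.74, a fall of 0.32 ± 0.08. These were small falls, 1.36-fold at most, with groups that did not overlap. Aldoa read 13.10, 13.08 and 13.29 against 12.84, 12.86 and 12.92, a fall of 0.28 ± 0.08 (adjusted p = 0.014) that was not called without control array 3 or TGF-b1 array 1 (adjusted p = 0.0571 and 0.0517). Pfkp (0.02), Pgam1 (-0.05) and Eno2 (-0.16) were not called. Gapdh control spots averaged 13.93 without and 13.72 with TGF-b1 near the 3′ end and 14.06 and 13.87 near the 5′ end, which was not tested.

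The pyruvate and transport members that fell were Pdk1, Ldha, Slc2a1 and Pdk3. Pdk1, a kinase that keeps pyruvate out of mitochondria, read 8.66, 8.87 and 9.64 without and 7.23, 7.62 and 7.49 with TGF-b1 and fell by 1.61 ± 0.22 (3.06-fold lower, adjusted p = 1.95e-04). Ldha read 13.23, 13.09 and 13.26 against 12.50, 12.50 and 12.50 and fell by 0.69 ± 0.07 (1.61-fold lower, adjusted p = 4.37e-05). Slc2a1, the basal glucose transporter, read 10.80, 10.52 and 11.06 against 10.28, 10.24 and 10.34 and fell by 0.50 ± 0.12 (adjusted p = 0.0063). Pdk3 read 7.31, 7.35 and 7.37 against 6.94, 6.98 and 6.85 and fell by 0.42 ± 0.06 (adjusted p = 4.06e-04), while Ldhb (-0.05) and the lactate exporter Slc16a3 (0.07) were not called.

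Among the oxygen sensors Egln3 again fell and Egln1 rose. Egln3 read 8.73, 8.18 and 9.21 without and 6.90, 6.87 and 6.87 with TGF-b1 and fell by 1.83 ± 0.19 (3.55-fold lower, adjusted p = 4.14e-05). Egln1 read 9.07, 9.24 and 9.03 against 9.73, 9.91 and 9.74 and rose by 0.68 ± 0.09 (1.60-fold, adjusted p = 1.37e-04). Second probe sets of both genes were called in the same direction (-0.78 and 0.50). Hif1a read 11.25, 11.25 and 11.47 against 10.87, 10.89 and 11.16 and fell by 0.35 ± 0.11 (adjusted p = 0.0299), a call lost without control array 3 (adjusted p = 0.12), without TGF-b1 array 1 (adjusted p = 0.115) or 2 (adjusted p = 0.101) and with the mean of its probe sets (adjusted p = 0.0611). Egln2 read 9.15, 8.91 and 9.10 against 9.02, 9.07 and 8.98 and Vhl 6.86, 6.56 and 6.77 against 6.86, 6.93 and 6.81, with overlapping groups and changes of -0.03 and 0.14.

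Of the other HIF targets Vegfa and P4ha2 rose and none fell. Vegfa read 8.98, 9.50 and 9.67 without and 9.86, 10.03 and 10.10 with TGF-b1, a rise of 0.61 ± 0.15 (1.53-fold, adjusted p = 0.00797). P4ha2, a collagen prolyl hydroxylase, read 7.42, 7.76 and 7.77 against 8.08, 8.27 and 8.29, a rise of 0.56 ± 0.11 (1.48-fold, adjusted p = 0.00285). Ddit4 read 10.50, 10.35 and 11.09 against 11.11, 10.69 and 11.10, and its change of 0.32 was not called (adjusted p = 0.224, and 0.0365 with the replicate block). Bnip3, a mitophagy receptor gene, read 9.25, 9.75 and 10.48 against 9.12, 9.67 and 9.33, overlapping groups with a change of -0.45 (95% interval -0.99 to 0.08). Without control array 1 it was called lower (-0.74, adjusted p = 0.0206). P4ha1 (0.13), Adm (0.04) and Ndrg1 (0.15) were not called, although 2 of 4 other Ndrg1 probe sets were (0.53 and 0.49).

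Control siRNA array 3 stood apart for these genes. Aldoc, Pdk1, Egln3, Bnip3 and Ddit4, 5 of the 31 members, were more than 0.5 log2 units above the mean of the other 2 arrays of the group, against 0.75% of all genes, and no member was that far below. Without it the falls of Pdk1, Egln3, Aldoc and Pfkl were 1.32, 1.58, 0.99 and 0.61 on the log2 scale, all still called, the change of Bnip3 was -0.12 and Ddit4 was called (0.54, adjusted p = 0.0135). The count of members called was 18 instead of 19. On control array 1, whose note mentions TGF-b1, 3 members were more than 0.5 log2 units below the mean of the other 2 arrays, against 0.621% of all genes. Without control array 1, 19 members were called.

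Set beside the 2 h results from the other line, whose arrays are separate, 5 of the 19 members called at 40 h had been called at 2 h. All 4 members called higher in newly made RNA at 2 h and measured in both tables (Hk2, Pfkfb3, Egln1 and Vegfa) were among the 6 called higher at 40 h, and Egln3, the 1 member called lower, was among the 13 called lower. Over all genes in both tables, 64.1% of those called higher in newly made RNA at 2 h were called higher at 40 h (18.0% of the higher calls there), and 67.9% of those called lower were called lower (12.1%). In the main fits, the falls of Ldha, Pdk1, Slc2a1, Pdk3 and the 7 glycolysis members were called at 40 h alone. Pgk1 was also called lower in newly made RNA at 2 h under some alternatives. The 2 h and 40 h results were not tested against each other, since cell line, time, siRNA and array type differ together.

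In the wider glycolysis list 1 of 29 measured genes rose and 9 fell at 40 h (34.5%): the lactate transporter gene Slc16a1 (-1.20 ± 0.10), Slc2a2 (-1.20 ± 0.11), the glycerol phosphate dehydrogenase gene Gpd2 (-0.58) and the mitochondrial pyruvate carrier gene Mpc1 (-0.42). In the wider hypoxia list 8 of 42 rose and 6 fell (33.3%), led by Plod2 (2.25 ± 0.20), Plod1 (0.66 ± 0.07), the heme oxygenase gene Hmox1 (2.00 ± 0.22) and Bhlhe40 (1.39 ± 0.24). Both shares are near the 30.7% of all genes.

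**Figure D3:**
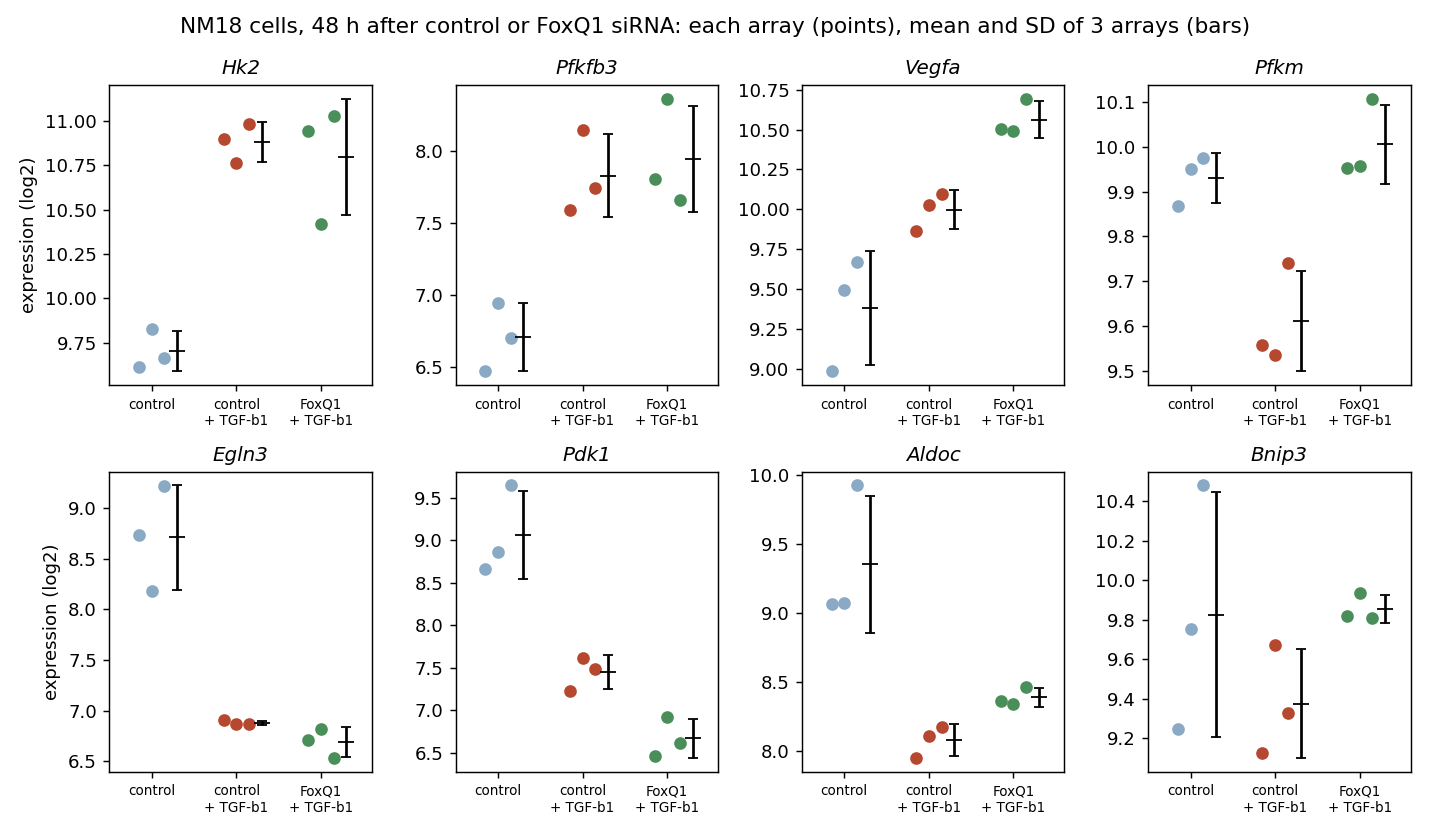
Expression (log2) of 8 genes on each NM18 array, 48 h after transfection, with points for arrays and bars for the mean and SD of 3 arrays; the vertical scale differs between panels. Hk2, Pfkfb3 and Vegfa are higher with TGF-b1, Egln3, Pdk1 and Aldoc are lower, Pfkm is lower with TGF-b1 under control siRNA alone, and control array 3 (rightmost of the first group) is the highest control array for Egln3, Pdk1, Aldoc and Bnip3.

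FoxQ1 siRNA was compared with control siRNA in cells that all had TGF-b1. Of 31 members 4 were higher (Pfkm, Pkm2, Pdk3 and Vegfa) and 2 lower (Pdk1 and P4ha2), 19.4% of the members, the share of all genes called being 19.6% (11.3% higher and 8.28% lower). These 2 shares, taken over genes of all levels, were close. In a fit of genes above the median level only, 4 of 22 members and 34% of genes were called. With the replicate block 9 of the 31 and 28.4% of all genes were called, the added members being Pfkp (0.40, adjusted p = 0.0135), Slc2a1 (0.28, adjusted p = 0.0356) and Ddit4 (0.34, adjusted p = 0.0363). The count was 3 without FoxQ1 siRNA array 1, 3 without TGF-b1 control array 2 and 2 without TGF-b1 control array 3.

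Pfkm read 9.56, 9.54 and 9.74 with control siRNA and 9.95, 9.96 and 10.11 with FoxQ1 siRNA, a difference of 0.40 ± 0.08 (1.32-fold, adjusted p = 0.00358). Pkm2 read 12.24, 12.23 and 12.17 against 12.43, 12.69 and 12.46, 0.31 ± 0.09 higher (adjusted p = 0.0272). Pdk3 read 6.94, 6.98 and 6.85 against 7.25, 7.15 and 7.15, 0.26 ± 0.06 higher (adjusted p = 0.0138). The groups of all 3 were separated, and Pfkm alone of the 6 was called without any 1 of the arrays.

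Vegfa, already higher with TGF-b1, read 9.86, 10.03 and 10.10 with control siRNA and 10.50, 10.49 and 10.69 with FoxQ1 siRNA, 0.56 ± 0.15 higher (1.48-fold, adjusted p = 0.0192); the call was lost without FoxQ1 siRNA array 3 or TGF-b1 control array 1 (adjusted p = 0.0714 and 0.0861), and a second probe set had 0.31 and was not called. Pdk1 read 7.23, 7.62 and 7.49 against 6.47, 6.92 and 6.62, 0.78 ± 0.22 lower (1.71-fold, adjusted p = 0.0262), with -0.25 and no call on its second probe set. P4ha2 read 8.08, 8.27 and 8.29 against 7.75, 7.69 and 8.02, 0.39 ± 0.11 lower (adjusted p = 0.0315). The groups of these 3 genes did not overlap, with the narrowest gap in P4ha2. The calls of Pdk1, P4ha2 and Pkm2 were each lost without any 1 of 4 arrays (adjusted p up to 0.101, 0.108 and 0.0898) and that of Pdk3 without either of 2 (adjusted p up to 0.0627).

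Hk2, Pfkfb3 and the oxygen sensors were not called here. Hk2 read 10.94, 10.42 and 11.03 with FoxQ1 siRNA, a difference of -0.08 (95% interval -0.39 to 0.22), Pfkfb3 had 0.12 (-0.30 to 0.54) and Egln3 -0.19 (-0.62 to 0.23). Egln3 read 6.71, 6.82 and 6.53 and Egln1 9.79, 9.58 and 9.81 with FoxQ1 siRNA, while Hif1a read 11.14, 10.83 and 11.15, Egln2 9.11, 9.07 and 9.02 and Vhl 6.94, 6.68 and 6.89. Egln3 arrays were all just below those with control siRNA, and the groups of the other 4 genes of this role overlapped. Egln1 had -0.07 (-0.26 to 0.12), Hif1a 0.07 (-0.17 to 0.31), Egln2 0.05 (-0.11 to 0.21) and Vhl -0.03 (-0.23 to 0.17). Ldha read 12.19, 12.42 and 12.30 with FoxQ1 siRNA, all below the TGF-b1 control arrays, with -0.20 ± 0.07 (adjusted p = 0.0868).

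In the wider lists, 5 of 29 glycolysis genes were higher and 4 lower (31.0%), with Slc16a1 at -1.34 ± 0.10, the glycerol phosphate dehydrogenase gene Gpd1 at 0.74 ± 0.12, the second pyruvate kinase gene Pklr at 0.40 and the ADP-dependent glucokinase gene Adpgk at -0.34. Of 42 hypoxia genes 5 were higher and 7 lower (28.6%): the disulfide oxidase gene Ero1a (-1.17 ± 0.17), Wsb1 (-0.65 ± 0.12) and the endothelin gene Edn1 (-0.90 ± 0.17) were lower and Insig2 (0.40 ± 0.07) higher. All genes were called at 19.6%.

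Against untreated control siRNA cells, the cells with FoxQ1 siRNA and TGF-b1 had 6 members higher and 8 lower (45.2%, against 37.9% of all genes). Above the median level 11 of 22 members and 61.6% of genes were called. This comparison shares its arrays with the other NM18 ones, so the values are given side by side. Pdk1 had -1.61 with TGF-b1 alone and -2.39 with FoxQ1 siRNA as well, 5.24-fold lower, and Vegfa 0.61 and 1.18. Hk2 had 1.18 and 1.10, Pfkfb3 1.12 and 1.24, Egln1 0.68 and 0.61, and Egln3 -1.83 and -2.02.

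Pfkm had -0.32 and 0.08, Pkm2 -0.42 and -0.11, Pdk3 -0.42 and -0.16, and P4ha2 0.56 and 0.17; these 4 were called with TGF-b1 alone and not with FoxQ1 siRNA added. Slc2a1 (-0.50 and -0.23) and Hif1a (-0.35 and -0.28) were likewise called in the first comparison alone. Ddit4, which read 11.31, 11.16 and 11.44 with FoxQ1 siRNA, had 0.32 and 0.65 (adjusted p = 0.0111 in the second). With the replicate block Pfkp, Pdk3 and Hif1a were also called against untreated cells (adjusted p = 0.00563, 0.0419 and 0.00891). The remaining called members, Hk1, Pfkl, Aldoa, Aldoc, Tpi1, Pgk1 and Ldha, had 0.43, -0.96, -0.33, -0.96, -0.31, -0.63 and -0.89 in the second comparison.

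In the wider glycolysis list Slc16a1 had -1.20 and -2.54, Slc2a2 had -1.20 and -1.28, Mpc1 -0.42 and -0.77 and Gpd2 -0.58 and -0.50, and 6 of 29 genes were higher and 8 lower in the second comparison. In the wider hypoxia list 11 of 42 were higher and 7 lower, led by Hmox1 (2.75 ± 0.22), Plod1 (0.75), Ero1a (-1.40) and Rbpj (-0.62). The shares called, 48.3% of the glycolysis and 42.9% of the hypoxia list, stand beside 37.9% of all genes.

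**Figure D4:**
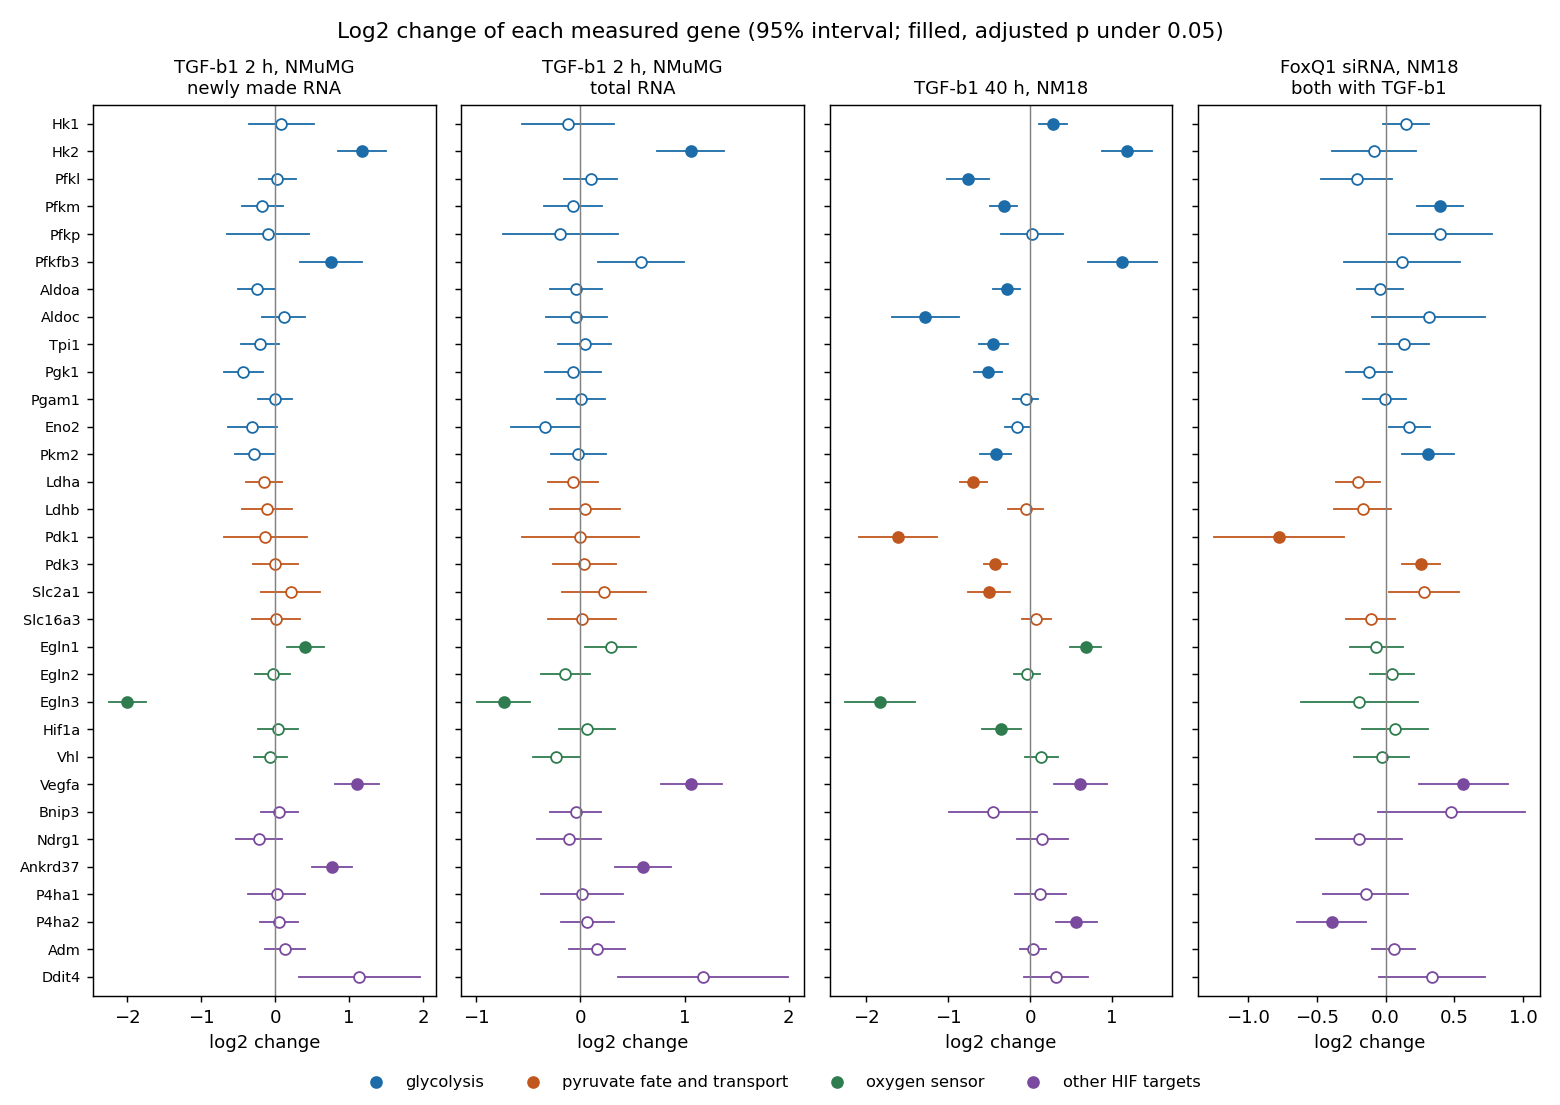
Log2 change of each measured member in 4 comparisons, with 95% intervals, filled points at an adjusted p under 0.05 and colours for the role; the horizontal scale differs between panels. Hk2, Pfkfb3, Egln1 and Vegfa lie right of 0 and Egln3 left in both TGF-b1 experiments, 7 glycolysis and 4 pyruvate and transport genes are filled left of 0 at 40 h, and with FoxQ1 siRNA 6 points are filled.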

How the data were processed

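The authors deposited 1 log2 expression value per probe set and array; no label states the scale, and log2 was taken from their spread (2.34 to 14.8 and 4.57 to 14.6), on which the fold changes rest. The submitters' processing notes name affy 1.18.2 with no role, and background correction and normalization are steps not given in the sources used here. Per the labels' protocols, newly made RNA was captured by mercury-based chromatography and NMuMG RNA was amplified over a pair of cycles, while NM18 RNA was labelled with a 3′ in vitro transcription kit. Levels were compared within a table only.

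Probe sets with 1 gene symbol (34945 of 45101 and 20380 of 22690) were used, and the one with the highest mean stood for its gene. In R 4.3.3, limma 3.58.1 (lmFit with eBayes, two-sided, 1 fit per table over all groups) was run on all genes with Benjamini-Hochberg adjustment, and genes were called at an adjusted p under 0.05; the procedure was tested on simulated data. Values after ± are SE for a change and SD (n = 3) for a level.

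The 36 members and both wider lists were chosen with earlier results of these data known, so they are described by counts beside all genes, with no test of a list. Array values are given for members called in a TGF-b1, interaction or siRNA comparison and for Hif1a, Egln1, Egln2 and Vhl; per wider list, the called genes of smallest p (at most 4) are named, and Foxq1, Smad7 and Skil serve as checks. A further TGF-b1 check gene, also in the hypoxia list, is not reported here. Replicates are called biological in the series' design text. Same-numbered arrays deviated together in every pair of the TGF-b1 and siRNA comparisons (correlations 0.122 to 0.732), so the numbers may pair them. In newly made RNA control array 3 and TGF-b1 array 2, of unlike number, did so too (0.347). The main fit left this pairing out, and the replicate block took it in as an alternative. Between newly made and total RNA the same-numbered correlations fell to 0.0119. Alternatives were the replicate block, quantile normalization, median centring, only the arrays compared, genes above the median level, the mean of all probe sets, eBayes with a trend and leaving out each array. The number of arrays limits the precision.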

Additional observations from a re-analysis of the deposited data

Results flagged for a closer look

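The effect of TGF-b1 at 2 h on Egln3 differed between newly made and total RNA by -1.26 on the log2 scale (limma interaction, adjusted p = 0.00757). The fall was 2.00 in newly made and 0.74 in total RNA, with the TGF-b1 arrays lower in 3 of 3 replicates of each kind. Over 19 alternatives the difference ran from -1.41 to -0.78 and was called in 18, the exception being the mean of all probe sets (adjusted p = 0.0988).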

How the results depend on the processing

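The number of members called stayed within 1.5 times of the value reported under every alternative run, with 2 exceptions. The interaction had 1 member, and 0 with the mean of all probe sets (Egln3, adjusted p = 0.0988). The FoxQ1 siRNA comparison had 6 members, and 2 to 6 when 1 array was left out. Leaving out 1 array gave 4 to 6 members in newly made and 3 to 4 in total RNA at 2 h, 17 to 19 at 40 h, 14 to 16 for FoxQ1 siRNA with TGF-b1 against untreated cells, and 19 to 23 and 21 to 24 for newly made against total RNA.

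With the replicate block the members called were 8 in newly made and 6 in total RNA at 2 h, 20 at 40 h, 9 with FoxQ1 siRNA and 17 against untreated cells. It changed no call beyond those given beside their values, except between newly made and total RNA. There Pfkp (-0.40, untreated) and Eno2 (0.32, with TGF-b1) became called. Same-numbered arrays of these comparisons correlated at 0.0119 to 0.306, which leaves their pairing open. Over all genes 1116 were called in newly made RNA at 2 h, 680 with only the arrays compared and 2320 with a block set inside each kind of RNA; in total RNA 452, 701 with the block and 1025 with that block; in the interaction 12, 39 with the block, 86 with that block, 19 after quantile normalization and 4 to 20 when 1 array was left out. Under TGF-b1 median centring took the higher share of fraction calls from 40.5% to 22.3%.

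For single members, the direction of 1 value was reversed with a call: Ddit4 between newly made and total RNA of untreated cells had -0.07, and -0.41 to 0.61 when 1 array was left out, the highest (adjusted p = 0.0235) without control newly made array 3. Single-member values were counted for members called in a comparison under at least 1 setting. Of these values under alternatives, 1505 kept their side of the threshold without a called value turning, 72 lost a call and 60 gained one.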
